A study of Mus musculus with 8 samples.

Results

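The 37 genes described here encode the enzymes of cholesterol and fatty acid synthesis and the SREBP proteins that regulate them. They were chosen by function, as named members of these pathways, and all 37 were present among the 25239 gene symbols of the table. RNA was sequenced from the corpus callosum, the white matter tract between the cerebral hemispheres, of adult male mice of the strain C57BL/6 (C57BL/6J in the study's methods). In bilateral common carotid artery stenosis (BCAS), a microcoil around each carotid artery lowers blood flow to the brain, and the sham operation omits the coil. Of the 8 libraries, 4 were labelled WT and 4 TRPA1-KO, a germline knockout of the cation channel TRPA1 in all tissues. For each label, 1 library came from sham on day 14 and 1 each from BCAS on days 7, 10, and 14, and a day was therefore not replicated. The 3 BCAS days served as replicates of a label, and their spread holds day as well as animal. According to the study's methods, an extract came from an individual mouse.

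Cholesterol is built from acetyl-CoA through the mevalonate arm, which ends in isoprenoid units, and the squalene and sterol arm, which joins these units and shapes the sterol. SREBP2, encoded by *Srebf2*, raises transcription of these enzymes when membrane sterol is low, whereas SREBP1, encoded by *Srebf1*, acts more on fatty acid synthesis. SCAP escorts both from the endoplasmic reticulum, and the INSIG proteins hold SCAP back when sterol is plentiful. Myelin is rich in cholesterol and long-chain lipids, and because plasma cholesterol hardly enters the brain, glia make it locally.

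The libraries held 7896071 to 12952093 reads on genes, and the values are CPM, read counts scaled to a common effective library size. Reads of *Trpa1* went against the labels, with 1, 0, 0, and 0 reads in the libraries labelled WT and 10, 11, 3, and 7 in those labelled TRPA1-KO. A count per gene cannot separate deleted from remaining exons, so each library is named by its label. Values per library are given below in the order sham, BCAS day 7, day 10, and day 14. Summed CPM of 12 mature oligodendrocyte markers (*Mbp*, *Mog*, and others), the cells that make myelin, lay at 12704 to 17009, and all 12 were detected in every library. Striatal projection neuron markers were also present, at 746 to 1907 CPM over 7 genes, although such neurons lie outside the tract. Cortical excitatory neuron markers, of cells that also lie outside it, summed to 4555 to 6163 CPM over 6 genes.

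All 37 genes passed the filter on low values, with 106 to 25843 reads per library and a mean of 15.6 CPM or more. Per kilobase of exon, the level in sham was highest for *Scd2*, a stearoyl-CoA desaturase, at 385 CPM per kb (331 to 400 over the 8 libraries). It was followed by *Scd1*, another desaturase, at 70.2 (57.1 to 72.6) and *Hmgcs1*, which makes HMG-CoA, at 69.9 (36.8 to 74.3). The ranges of *Scd1* and *Hmgcs1* overlapped, whereas that of *Scd2* stood clear of both. *Scd1* and *Scd2* are close paralogs, so reads could be split between them. The lowest level was that of *Lss*, which closes the sterol ring, at 5.0 CPM per kb (3.40 to 5.59). *Tm7sf2*, a sterol reductase, followed at 5.15 (4.32 to 5.26). These ranges overlapped each other and those of other members, such as *Hsd17b7* at 5.92 (5.16 to 6.72). The exon length taken for *Lss*, over all annotated exons, was 10787 bases.

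The sterol genes were low in a single library, WT BCAS day 7. The median member was 0.35 log2 units under the mean of both sham libraries there, on the log2(CPM + 1) scale, and the medians of the other 7 libraries lay between -0.02 and 0.05. Of the 37 members, 33 lay under the sham mean in this library. It was the lowest of the 8 libraries for 28 members, against a background of 25.8% of the 10744 genes that averaged 10 CPM or more. All 18 genes of the mevalonate and sterol arms were among these 28. A difference of at least 1.5-fold under sham was reached by 8 members, *Hmgcs1*, *Mvd*, *Idi1*, *Sqle*, *Cyp51*, *Msmo1*, *Srebf2*, and *Stard4*, where 1.6% of these 10744 genes reached it. This library has no replicate, so the difference has no replicate check.

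In either direction, 4.37% of the same genes differed from sham by at least 1.5-fold in WT BCAS day 7, 1.66% on day 10, and 0.773% on day 14. With the label TRPA1-KO, the shares were 1.69%, 0.577%, and 0.679%. On this log2(CPM + 1) scale no member reached 1.5-fold in these other 5 BCAS libraries, although the plain CPM ratio of *Mvd* to the sham mean was 1.51 in TRPA1-KO BCAS day 7.

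**Figure D1:**
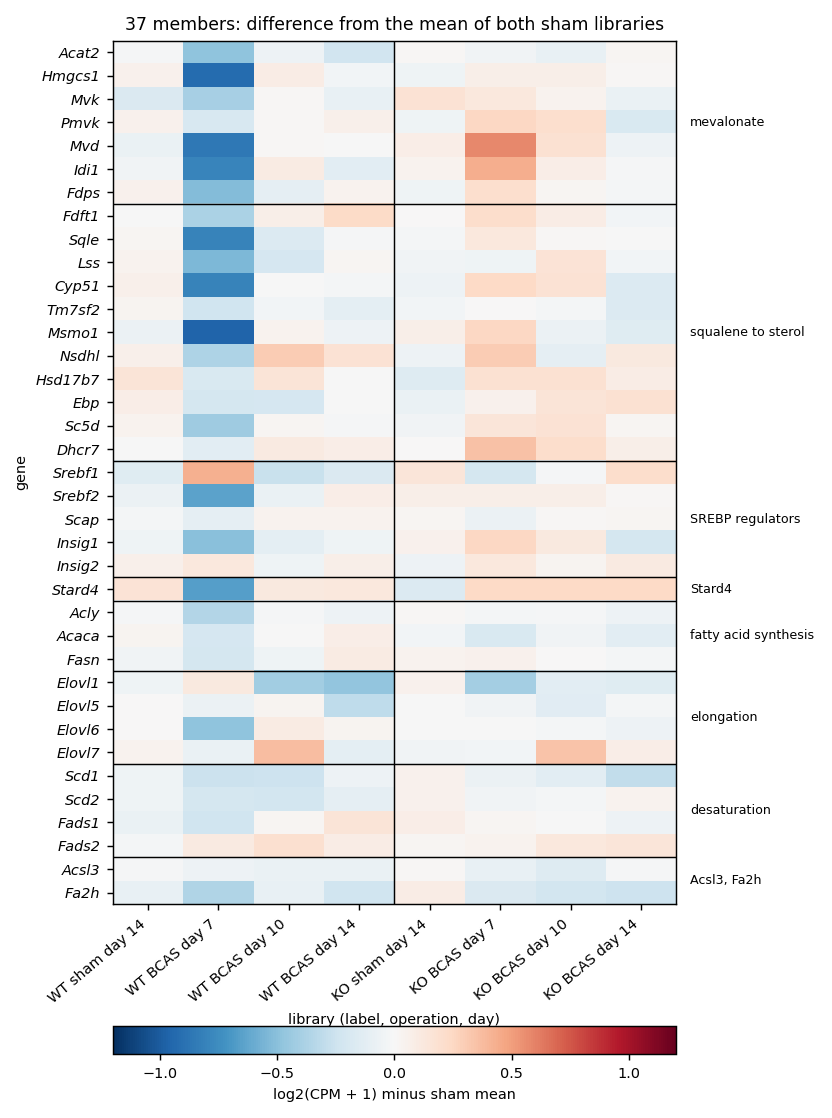
Difference of each of the 37 members (rows, grouped by role) from the mean of both sham libraries in each library (columns), as log2(CPM + 1), blue lower and red higher. The column of WT BCAS day 7 is blue for 33 of 37 members, with *Srebf1* the darkest of the 4 red cells in it.

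In the mevalonate arm, the median difference from sham was -0.52 in WT BCAS day 7, where all 7 genes were under sham, and 0.20 in TRPA1-KO BCAS day 7, where 6 of 7 were over it. *Hmgcs1* was at 332, 169, 342, and 314 CPM in the libraries labelled WT and at 310.2, 337, 337, and 325 CPM in those labelled TRPA1-KO. The day 7 value of 169 CPM (95% Clopper-Pearson interval 161 to 177, counting error only) lay far under the other 7 libraries, which spanned 310.2 to 342 CPM. *Mvd*, which decarboxylates mevalonate pyrophosphate, was at 17.1, 9.60, 18.4, and 18.2 CPM in WT and at 19.4, 27.6, 20.8, and 17.5 CPM in TRPA1-KO libraries. Both extremes of *Mvd* were day 7 BCAS libraries, WT at the bottom and TRPA1-KO at the top. *Acat2*, which joins the first acetyl-CoA units, was at 70.3, 50.2, 67.7, and 60.3 CPM in WT and at 71.3, 68.8, 66.4, and 71.9 CPM in TRPA1-KO libraries. All 3 WT BCAS values of *Acat2* were under both sham values. The WT BCAS and sham groups did not overlap, in either direction, for 8 members. With 3 against 2 libraries an exact permutation test cannot give a p under 0.2. The isomerase gene *Idi1* behaved like *Mvd*, with 37.7 CPM in WT and 89.3 CPM in TRPA1-KO on day 7 of BCAS. *Mvk*, *Pmvk*, and *Fdps*, for 2 kinases and farnesyl pyrophosphate synthase, were each lowest in WT BCAS day 7 too, at 14.4, 23.7, and 33.5 CPM. *Hmgcs1* and *Mvd* overlap the annotated genes *Gm48342* and *Gm20388*, and the strand setting of the counting is not stated in the sources used here.

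In the squalene and sterol arm, the median difference from sham was -0.38 in WT BCAS day 7 and 0.18 in TRPA1-KO BCAS day 7. *Sqle*, the squalene epoxidase and a rate-limiting step of the arm, was at 72.2, 40.4, 63.4, and 70.3 CPM in WT and at 70.3, 77.7, 72.0, and 71.1 CPM in TRPA1-KO libraries. Its day 7 value of 40.4 CPM (36.7 to 44.3) again stood alone at the bottom. The demethylase *Cyp51* and the sterol oxidase *Msmo1* were at 48.2 and 45.4 CPM in this library, with 75.6 to 100.2 and 80.6 to 107 CPM in the others. *Fdft1*, the squalene synthase, *Lss*, and the dehydrogenase gene *Nsdhl* were at 73.3, 36.6, and 15.6 CPM there, also under every other library. The later enzymes *Sc5d*, *Ebp*, *Tm7sf2*, *Hsd17b7*, and *Dhcr7* differed from sham by -0.42, -0.21, -0.24, -0.18, and -0.13 there. *Stard4*, which carries sterol between membranes, was at 42.2, 23.3, 40.6, and 40.9 CPM in WT and at 33.2, 44.2, 44.4, and 44.3 CPM in TRPA1-KO libraries.

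The regulators did not share a direction. *Srebf2* was at 232, 155, 231, and 257 CPM in WT and at 255, 255, 255, and 246 CPM in TRPA1-KO libraries, so that WT BCAS day 7 was lowest. *Srebf1* went the other way, at 54.6, 81.5, 49.9, and 53.5 CPM in WT and at 66.7, 52.1, 59.8, and 69.8 CPM in TRPA1-KO libraries. Here WT BCAS day 7 was the highest of the 8 libraries. *Insig1*, itself a target of SREBP, was at 81.4, 59.05, 77.8, and 81.1 CPM in WT and at 87.1, 100.3, 91.3, and 72.7 CPM in TRPA1-KO libraries. *Insig1* was lowest in WT and highest in TRPA1-KO on day 7, and TRPA1-KO BCAS day 7 was also the highest library for 9 of the 18 genes of the mevalonate and sterol arms. *Scap* ranged only from 92.8 to 103 CPM, at 98.6, 92.8, 103, and 103 CPM in WT and at 101, 95.1, 101, and 102 CPM in TRPA1-KO libraries. *Insig2* ranged from 36.0 to 41.1 CPM, at 39.0, 41.0, 36.2, and 39.3 CPM in WT and at 36.0, 41.1, 38.4, and 40.4 CPM in TRPA1-KO libraries. Neither *Scap* nor *Insig2* set WT BCAS day 7 apart.

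**Figure D2:**
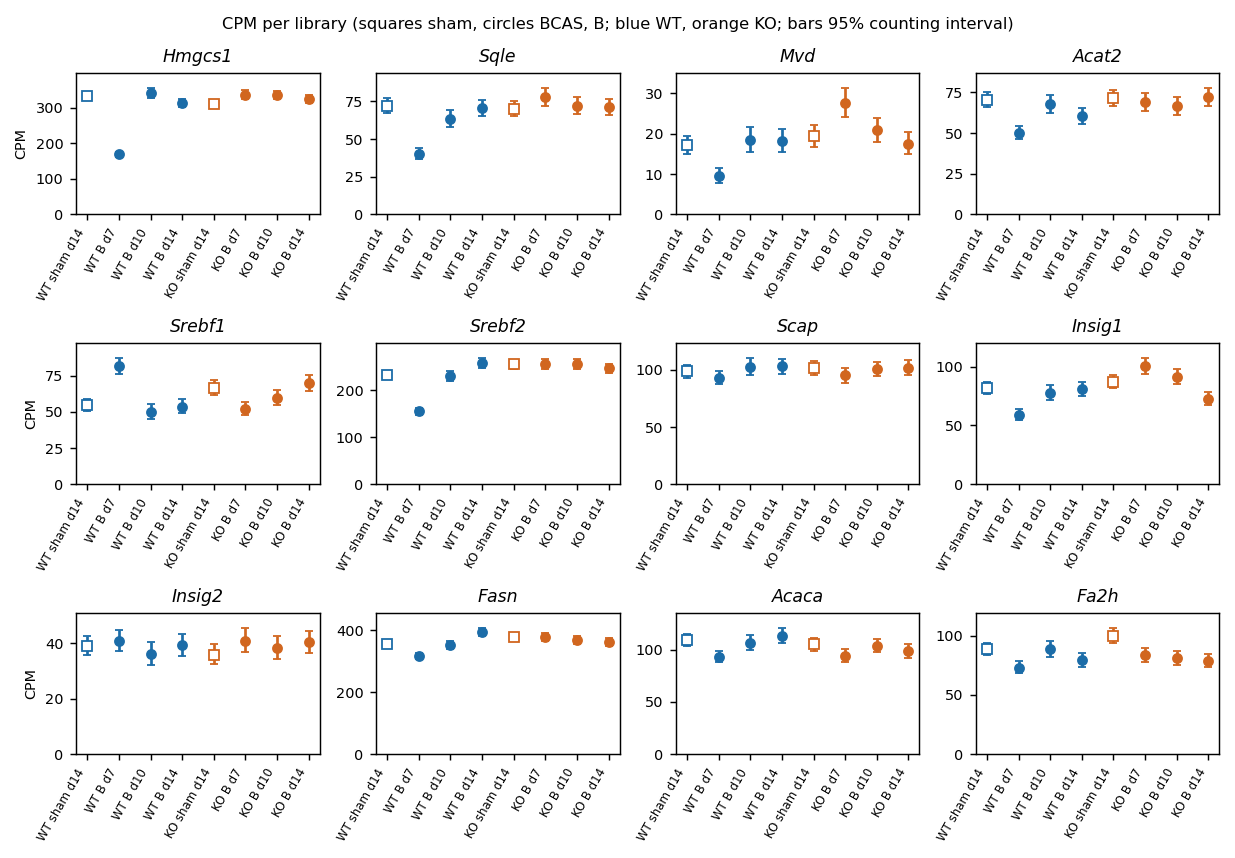
CPM (vertical axes from 0) of 12 members in each library (horizontal axes), squares for sham and circles for BCAS, blue for WT and orange for TRPA1-KO, with 95% counting intervals. *Hmgcs1*, *Sqle*, *Mvd*, *Srebf2*, and *Insig1* are lowest and *Srebf1* is highest in WT BCAS day 7, whereas *Scap* and *Insig2* are nearly level.

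The fatty acid genes were closer to sham. *Fasn*, the fatty acid synthase, was at 356, 318, 354, and 394 CPM in WT and at 378, 379, 368, and 362 CPM in TRPA1-KO libraries. *Acaca*, the acetyl-CoA carboxylase that commits carbon to fatty acids, was at 109, 93.3, 107, and 113 CPM in WT and at 105, 94.2, 104, and 98.4 CPM in TRPA1-KO libraries. For both, WT BCAS day 7 was the lowest library, but for *Acaca* the TRPA1-KO library of that day was nearly as low. *Acly*, which supplies cytosolic acetyl-CoA, was at 152 CPM there and at 186 to 196 CPM elsewhere. Among the elongases, *Elovl6* was at 54.4 CPM in WT BCAS day 7 and at 73.0 to 82.0 CPM elsewhere. *Elovl1*, which elongates very long chains, was highest in WT BCAS day 7 at 29.5 CPM, close to TRPA1-KO sham at 28.1 CPM. *Elovl5* and *Elovl7* were lowest in WT BCAS day 14. Among the desaturases, *Fads1* was lowest in WT BCAS day 7 and *Scd1*, *Scd2*, and *Fads2* were not. *Acsl3*, which activates fatty acids, spanned 200.4 to 224 CPM.

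Whether the labels differed under BCAS, the comparison made by the study, was tested with limma on the 6 BCAS libraries. No member passed a p under 0.05 or an adjusted p under 0.05, where 4.2% and 0.0166% of the 18123 genes tested passed. The edgeR quasi-likelihood test called 1 member with a p under 0.05 and 5.23% of all genes, and DESeq2 called 4 members and 3.29% of genes, these members all lower in WT. The median member was 0.13 log2 units lower in WT (32 of 37 lower), beside a median of 0.00 over all genes tested. The groups did not overlap for 5 members, *Sqle*, *Ebp*, *Sc5d*, *Stard4*, and *Scd2*, each lower in WT, and for 9.21% of all genes tested. With 3 libraries a group, the exact permutation test (two-sided) cannot give a p under 0.10.

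*Sqle* averaged 58.0 ± 15.7 CPM in WT and 73.6 ± 3.60 CPM in TRPA1-KO (SD, n = 3 each), a log2 difference of -0.37 (SE 0.17, limma adjusted p = 0.98). *Hmgcs1* averaged 275 ± 92.7 and 333 ± 7.14 CPM, a log2 difference of -0.34 (SE 0.21, limma adjusted p = 0.98). For both genes the SD between the WT days was larger than the difference of the means. *Fasn* differed by -0.06 (SE 0.09) and *Srebf1* by 0.00 (SE 0.17) on the same scale.

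Each day had a single library per label, so label and animal cannot be told apart within a day. For the members, the libraries of the labels differed most on day 7. On that day the median member was 0.44 log2 units lower in WT than in TRPA1-KO (33 of 37 lower), on day 10 it was 0.03 lower (22 of 37), and on day 14 the median difference was 0.01 (18 of 37 lower). At least 1.5-fold lower in WT on day 7 were 12 members, against 1.46% of the genes averaging 10 CPM or more, and none on days 10 and 14. The CPM ratio of WT to TRPA1-KO on day 7 was 0.35 for *Mvd*, 0.42 for *Idi1*, 0.43 for *Msmo1*, 0.48 for *Cyp51*, and 0.50 for *Hmgcs1*. TRPA1-KO BCAS day 7 was the highest of the 8 libraries for 11 members, against 16.6% of genes. Without the WT day 7 library the median difference was -0.06 with 0 members called (3.4% of all genes). The count was also 0 without TRPA1-KO day 7 and without TRPA1-KO day 10, as it was with all 6 BCAS libraries. Without WT day 14, 11 members were called (10.2% of genes), without WT day 10, 6 members (3.29%), and without TRPA1-KO day 14, 5 members (4.65%), all lower in WT. Left with days 10 and 14 alone, an alternative chosen after seeing the data, the fit called *Srebf1* (-0.32) and *Elovl1* (-0.31), both lower in WT, where 4.3% of genes were called.

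**Figure D3:**
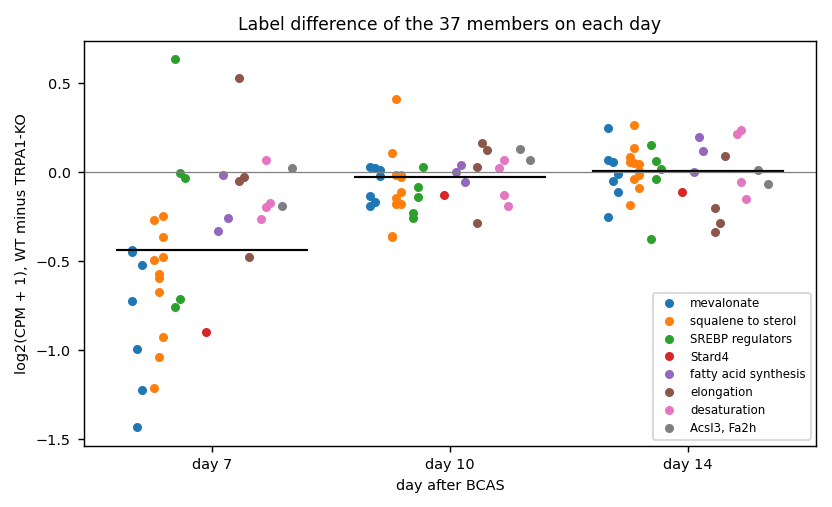
Difference between the WT and TRPA1-KO libraries of a day (vertical axis, log2(CPM + 1), WT minus TRPA1-KO) for each of the 37 members (points, coloured by role) on BCAS days 7, 10, and 14, with the median as a line. The medians are -0.44, -0.03, and 0.01, and most sterol genes lie low on day 7 only among these 3 days.

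Over all 4 libraries of each label, sham included, *Mvd* was the only member with a p under 0.05, where 3.94% of genes passed, and no member passed the adjusted threshold, which 0.0497% of genes passed. *Mvd* averaged 15.8 ± 4.19 CPM in WT and 21.3 ± 4.41 CPM in TRPA1-KO (SD, n = 4 each), a log2 difference of -0.43 (SE 0.19, limma adjusted p = 0.99). The exact permutation test gave p = 0.086, and the groups overlapped. The difference of *Mvd* was -0.22 without WT BCAS day 7 and -0.30 without TRPA1-KO BCAS day 7, and it was not called without either of these, without the TRPA1-KO sham library (-0.47), or without TRPA1-KO BCAS day 10 (-0.43). The difference between labels in the BCAS effect itself, an interaction with 1 sham library per label, was called for 0 members by limma, where 1.5% of genes had a p under 0.05 and 0% an adjusted p under 0.05. The edgeR quasi-likelihood test called 1 member, *Hsd17b7*, which makes a late sterol reduction step, and 1.85% of genes.

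Whether BCAS itself differed from sham was tested with both sham libraries as 1 group, which the comparisons of the 2 labels share. *Fa2h*, which hydroxylates the fatty acids of myelin galactolipids, was the only member called in both labels. It was at 88.4, 73.0, 88.6, and 79.4 CPM in WT and at 99.9, 83.3, 80.7, and 78.8 CPM in TRPA1-KO libraries. The WT day 10 value exceeded the sham value of its own label, and all 3 TRPA1-KO BCAS values were under both sham values. The TRPA1-KO BCAS and sham groups did not overlap, in either direction, for 11 members. With 3 against 2 libraries the exact permutation test cannot give a p under 0.2, so this separation adds little to the call. Over the 6 BCAS libraries *Fa2h* averaged 80.6 ± 5.16 CPM, against 94.2 ± 8.14 CPM in the 2 sham libraries (SD), a log2 difference of -0.22 (SE 0.08, limma adjusted p = 1.0). It was the only member called in this comparison, at a p under 0.05 that 3.53% of genes passed, and 0% of genes passed the adjusted threshold. The exact permutation test gave p = 0.14, where the smallest p that 6 against 2 libraries allow is 0.071. Without the TRPA1-KO sham library the difference was -0.13 and was not called.

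In WT BCAS against sham, 2 members had a p under 0.05, *Acat2* and *Fa2h*, both lower, where 5.45% of genes passed, and none had an adjusted p under 0.05 (0% of genes). *Acat2* averaged 59.4 ± 8.75 CPM in BCAS (n = 3) and 70.8 ± 0.72 CPM in sham (n = 2), a log2 difference of -0.26 (SE 0.11, limma adjusted p = 0.91). Without WT BCAS day 7 the difference of *Acat2* was -0.15 and was not called, the median of the 37 members was -0.01 in place of -0.14, and *Elovl1* was then the called member. The call of *Acat2* was also lost without either sham library or TRPA1-KO BCAS day 10, and that of *Fa2h* without WT BCAS day 7, WT BCAS day 14, or the TRPA1-KO sham library. In TRPA1-KO BCAS against sham, *Fa2h* was the only called member (-0.21, SE 0.09, limma adjusted p = 1.0), beside 2.74% of genes at p and 0.00552% at the adjusted p, and the median member was at 0.04. This call was lost without the TRPA1-KO sham library (-0.13) or any of the 3 TRPA1-KO BCAS libraries. Mature oligodendrocyte markers were lower with *Fa2h*, with summed CPM of 12704 to 14412 in BCAS against 15451 and 17009 in sham. Over all 6 BCAS libraries 5 of the 12 were called lower, where 3.53% of genes passed. All 7 striatal projection neuron markers were also called lower there, with a median of -0.74. TRPA1-KO sham was the highest of the 8 libraries for *Fa2h*, for 9 of the oligodendrocyte markers, and for all 7 striatal markers. The part of either cell type in the *Fa2h* difference was not tested. In bulk tissue fewer cells of a type and less RNA per cell cannot be told apart.

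Other genes of these pathways were followed through fixed lists. Among 25 tested genes of sterol and fatty acid synthesis outside the 37, limma called 1 lower in WT than in TRPA1-KO under BCAS, *Fads6*, and none higher. In this comparison 4.2% of all genes tested passed, so these list counts are near that share. Of 17 genes of sterol uptake, efflux, and sensing, 1 was called higher, *Soat1*, which esterifies cholesterol for storage (0.35, SE 0.12, limma adjusted p = 0.98). Genes of cholesterol export stood high in WT BCAS day 7. The exporter *Abca1* was at 117 CPM against 37.5 to 64.8 CPM, and *Apoe*, its lipoprotein partner, at 1465 CPM against 875.5 to 1008 CPM. These 2 genes were named after their values were seen. Of 10 genes of myelin sphingolipid synthesis, *Ugt8a*, which makes galactosylceramide, was called lower in WT BCAS than in sham (-0.31, SE 0.14, limma adjusted p = 0.91). In that comparison 5.45% of all genes passed. *Fads6* (-0.39) of the synthesis list and *Npc1* (-0.21) of the uptake list were also called lower in it.

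Markers of several cell types also differed in the same library. The 8 microglial markers summed to 979 CPM in WT BCAS day 7, to 326 to 580 CPM in the other BCAS libraries, and to 350 and 357 CPM in sham, and all 8 were highest in it. The median astrocyte marker was 0.37 log2 units over sham there. The cortical excitatory neuron markers were all 6 under sham in WT BCAS day 7, and 5 of them were lowest in it. Their median was -0.21 there and 0.15 in TRPA1-KO BCAS day 7, and the median difference of WT from TRPA1-KO was -0.46, 0.09, and 0.23 on days 7, 10, and 14. Striatal projection neuron markers had a median of -1.18 in WT and -1.12 in TRPA1-KO on day 7, and mature oligodendrocyte markers of -0.30 and -0.31. WT BCAS day 10 had a microglial median of 0.71 and a member median of 0.00. The part of any of these cell types in the sterol values was not tested.

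**Figure D4:**
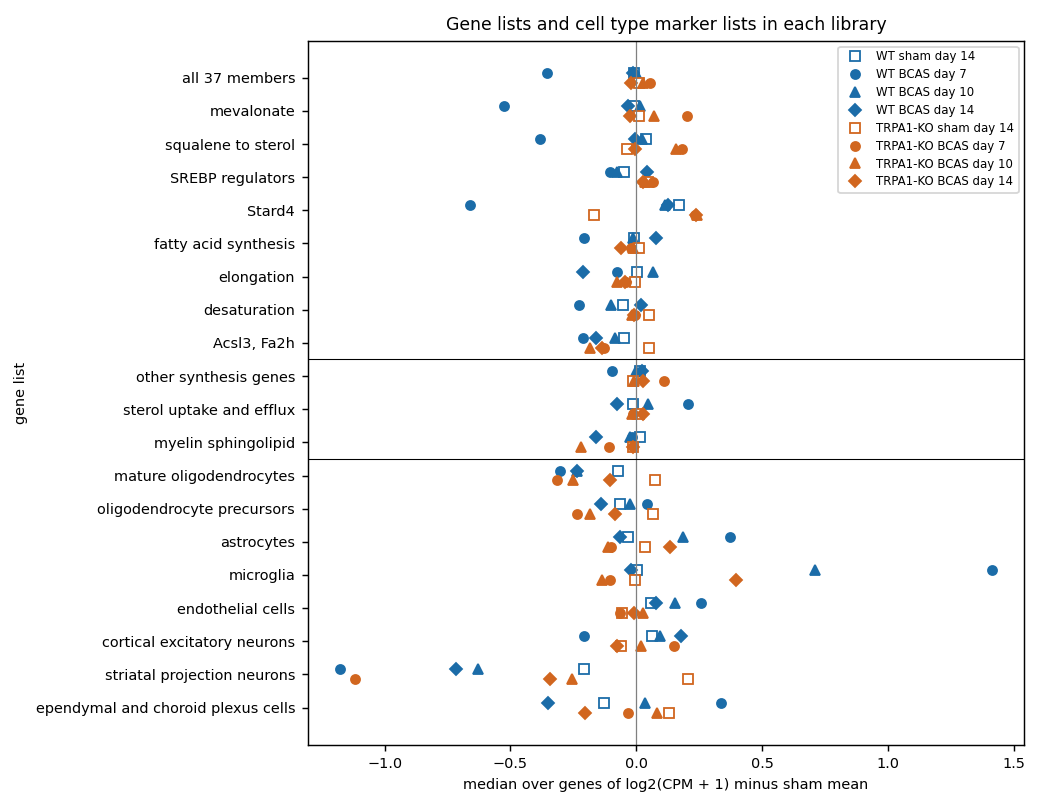
Median over the genes of each list (rows) of log2(CPM + 1) minus the sham mean (horizontal axis), 1 symbol per library, blue for WT and orange for TRPA1-KO. WT BCAS day 7 (blue circle) lies lowest for the mevalonate arm (-0.52), the squalene to sterol arm (-0.38), and *Stard4* (-0.66), and highest for microglia (1.41).

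Promoters are shown because the sterol genes were low together in WT BCAS day 7. SREBP binds the sterol regulatory element, here searched as TCACNCCAC and in the shorter form CACNCCAC on both strands of RefSeq windows of GRCm38.p6 that run from 250 bases before to 50 after a start. Windows were found for 29 of the 37 members. The longer form was in 1.24% of all 32851 windows and, among members, in that of *Hmgcs1*. The shorter form, which lies within the longer, was in 6.24% of windows and in those of *Acat2*, *Elovl7*, *Hmgcs1*, and *Insig1*. The E-box CACGTG was in 7.15% of windows and in those of *Dhcr7*, *Elovl5*, *Hsd17b7*, *Insig1*, *Sc5d*, and *Scap*. Stretches around the matches follow, 5′ to 3′ on the strand of the gene, with the matched letters, or their reverse complement for *Insig1*, in capitals.
Hmgcs1, chr13:119690175-119690262 (+): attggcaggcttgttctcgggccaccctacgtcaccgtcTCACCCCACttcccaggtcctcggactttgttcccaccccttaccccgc
Insig1, chr5:28071363-28071450 (+): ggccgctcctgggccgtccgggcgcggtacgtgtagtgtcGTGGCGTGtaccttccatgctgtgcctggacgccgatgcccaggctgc
Acat2, chr17:12960859-12960946 (-): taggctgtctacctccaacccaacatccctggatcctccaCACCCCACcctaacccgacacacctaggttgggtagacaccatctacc
Elovl7, chr13:108214241-108214328 (+): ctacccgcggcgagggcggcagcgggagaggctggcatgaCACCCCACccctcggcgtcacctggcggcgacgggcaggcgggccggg

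The first 3 of these genes were lowest in WT BCAS day 7 and *Elovl7* was not, and 28 of all 37 members were lowest there. Any part of the matched letters in these values was not tested. *Acat2* held a further match on the opposite strand, and *Sqle*, *Fdps*, *Fdft1*, *Stard4*, *Scd1*, *Scd2*, *Fads1*, and *Fa2h* had no window in the table. A match of letters is a description and not a binding site.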

How the data were processed

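Polyadenylated RNA of 8 libraries was measured. Per the labels, the authors used HISAT2, featureCounts of Subread, and edgeR on mm10. As deposited, the signal holds CPM, the read count of a gene over the effective library size, without a log step. In every library 100% of values were whole multiples (within 0.001) of the value of 1 read, so reads were recovered. Values were tested as log2(CPM + 1), which understates changes of low genes, in R version 4.3.3 with limma version 3.58.1 (lmFit, eBayes with trend, two-sided, Benjamini-Hochberg over all genes tested), for 18123 of 25239 genes that averaged 0.1 CPM or more. The scripts were tested on simulated data. BCAS groups were compared on 6 libraries and sham comparisons fitted on all 8. Alternatives included edgeR version 4.0.16 and DESeq2 version 1.42.0 on the recovered reads. Intervals cover counting error only.

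The members and lists were chosen with earlier results of these data known. Full values are given for members with a p under 0.05 in any comparison, for the SREBP regulators, and for *Hmgcs1*, *Sqle*, *Fasn*, and *Acaca*. *Stard4* and other members were given values after these were seen. Exon lengths and overlaps come from GENCODE M21 (GRCm38). Day did not pair libraries, with correlations of deviations of -0.10, 0.01, and -0.26 on days 7, 10, and 14 over 10744 genes. The p-values measure the spread between these libraries, in which day and animal cannot be told apart. Not every gene of the lists is reported by name here.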

Additional observations from a re-analysis of the deposited data

How the results depend on the processing

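No member had an adjusted p under 0.05 in any comparison under any alternative run. No member called in the main limma fit of a comparison changed direction under an alternative. Counts of members with a p under 0.05 were unstable, and the cause was not tested. Under BCAS, WT against TRPA1-KO gave 0, and 2 with a pseudocount of 0.1, 1 with no filter, 1 with a filter at a mean of 1 CPM, 6 with all 8 libraries in 1 fit, 2 on days 10 and 14 alone, 1 with edgeR, and 4 with DESeq2. WT BCAS against sham gave 2, and 1 with equalized library medians (*Fa2h*) or DESeq2 (*Scd2*, so that neither *Acat2* nor *Fa2h* was called). TRPA1-KO BCAS against sham gave 1, and 0 under these same 2 settings. All WT against all TRPA1-KO gave 1, and 2 with a pseudocount of 0.1, 0 with no filter, 0 with equalized medians, 3 with edgeR, and 3 with DESeq2. With limma's robust option 1 was called, *Scd2* in place of *Mvd*. The difference of BCAS effects gave 0, and 1 with edgeR. With postoperative day as a replicate block, 1 member (*Stard4*) was called under BCAS and 0 over all libraries of each label, with unchanged medians of -0.13 and -0.09. The days share only a number.

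Leaving out each library in turn gave 0 to 11 called members for the labels under BCAS, 0 to 6 for WT BCAS against sham, 0 to 2 for TRPA1-KO BCAS against sham, 0 to 2 for all BCAS against sham, 0 to 5 for all WT against all TRPA1-KO, and 0 to 1 for the difference of BCAS effects. Where this left a group with 1 library, that library was assumed to vary like the others, and the difference of BCAS effects could not be fitted without a sham library. The median of TRPA1-KO BCAS against sham (0.04) was 0.0042 without the WT sham library, 0.0059 without TRPA1-KO BCAS day 7, and 0.07 at most. The median of all BCAS against sham turned from -0.07 to 0.02 without WT BCAS day 7. The members had 106 or more reads in each library, and each day and label had a single library.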

Other observations

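Among the desaturases outside the 37 genes, *Scd3* was at 55.8 CPM in TRPA1-KO BCAS day 14 and at 3.2 to 7.3 CPM in the other 7 libraries. *Scd4* was at 39.4 CPM in TRPA1-KO BCAS day 7 and at 0.4 to 1.7 CPM in the others. *Scd1* and *Scd2*, their close paralogs, showed no such value in either library. Both were noticed after the values were seen and each rests on 1 library.

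*Srebf1* and *Elovl1* shared an order that the sterol genes did not have. Both were highest of the 8 libraries in WT BCAS day 7 and lower in WT than in TRPA1-KO on days 10 and 14, with CPM ratios of 0.83 and 0.77 for *Srebf1* and 0.81 and 0.79 for *Elovl1*.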
